A study of Oncorhynchus kisutch with 226 samples.

Results

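The probes described here were those whose deposited log2 ratio was high in river smolts and lower at every other sampled stage of young coho (Oncorhynchus kisutch), a salmon of the Pacific that starts life in rivers and matures at sea. Liver RNA of 226 fish was hybridised on 2-colour microarrays, with 1 fish per array and a pool of all liver samples as the common reference. The members were selected on measured values: the mean log2 ratio of each of 6 stages was taken, the means were sorted, and a probe was kept when the widest gap between neighbouring means was at least 0.4 and left smolts alone above it. Of 43567 probes, 16802 were measured on at least 80% of arrays, smolts stood alone above the widest gap in 340 of these, and 92 reached the gap threshold. The height of smolts over the other stages is therefore how the 92 probes were found, and it is given as a description with no test.

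The 8 parr (young river fish before migration) were hatchery fish of the Chilliwack River from 2008, with a fork length of 5.10 ± 0.262 cm (SD). The 54 smolts came from 5 rivers in 6 groups. In 2009 there were 10 hatchery and 10 wild smolts of the Capilano River, 7 wild smolts of the Salmon River, 9 hatchery smolts of the Chehalis River and 10 hatchery smolts of the Puntledge River, and in 2008 there were 8 wild smolts of the Chilliwack River. Mean fork length of the smolt groups ran from 10.2 cm in Chilliwack to 12.9 cm in Puntledge. The ocean fish were 14 caught in spring, all wild and from the southern Strait of Georgia in 2009, with 67 in summer, 71 in fall and 12 in winter, of both origins and from the Strait and the west coast of Vancouver Island. Summer and fall fish were mostly of 2009 with some of 2008, and winter fish were of 2009. Stock labels of the ocean fish included Fraser, S_Main, ECVI, Columbia and Puget_Sound, in shares that differed by stage. Mean fork length of the ocean fish rose from 11.3 cm in spring to 34.7 cm in winter. Smolts were close in length to spring fish (11.2 ± 1.38 and 11.3 ± 1.07 cm) and shared river water with parr, but no other stage matched them in both. Parr and wild Chilliwack smolts differ in origin and size, which cannot be told apart from stage between these groups.

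Smolting is the change by which a river-dwelling parr becomes able to live in seawater. It is known to be driven by thyroid hormone, growth hormone and cortisol. The liver is a target of all of these, makes insulin-like growth factor and the yolk and plasma proteins, and is known to shift from storing to using lipid during the change. The files pair no probe with a gene: each identifier gives only the column and row of a spot, and the gene table at hand does not list them, so probes are given by identifier and no sequence or function can be attached. In these bulk samples, fewer cells of a type and less RNA per cell cannot be told apart, and the identity of the tissue could not be checked against marker genes.

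Medians of the arrays lay between -0.01 and 0.06 (log2), and 12760 to 30826 probes were measured per array. The numerator and the base of the ratio are not stated with the values. The values fall with variance as fish over pool in base 2 would, so "higher" below means likely higher in the fish, and with the opposite numerator it would read "lower". On inspection of the data 9 of the 226 arrays stood apart: 3 had more than 100 of the kept probes below -4, and the others correlated with the mean of the rest of their own group at r under 0.2. Parr fish 5 had 449 such low values and spring fish 3 had 649, and the third was Chilliwack smolt 2 with fewer than these. Once all 9 arrays were set aside, the median was 13 and the highest 67. The other 7 were 2 smolts (fish 2 of Chilliwack and fish 26 of the wild Capilano group), 2 spring fish and 3 fall fish.

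Parr fish 5 decided part of the list. It was the lowest parr in 47 of the 92 probes. Without it 85 probes met the rule, and 72 of the 92 were among them, so 20 of the 92 probes did not meet the rule when this array was left out. In 4 of these 20 smolts still led the next stage by at least 0.4 but a wider gap lay elsewhere, in 16 the lead was smaller, and in 3 of the 16 parr lay above smolts. Leaving out any other single fish kept 82 to 92 of the 92. Without all 9 arrays that stood apart, 71 probes met the rule and 57 of the 92 were among them. An example is C185R036, where 7 parr lay between 0.35 and 0.85, parr fish 5 lay at -5.43, and the parr mean was -0.14 with it and 0.62 without it. Smolts averaged 0.65 ± 0.33 (SD, n = 54) for that probe, so its 7 other parr lay within the range of the smolts.

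The gap ranged from 0.40 to 2.27 (log2) with a median of 0.63. It was at least 1 in 12 probes, between 0.5 and 1 in 53 and under 0.5 in 27. The stage next below smolts was parr for 26 probes, fall for 19, winter for 19, spring for 16 and summer for 12. Lowest of all was spring for 31 probes, winter for 25, parr for 19, summer for 13 and fall for 4. No single stage was therefore the lowest in most probes. The rule limits what this can show, since it drops a probe where another stage lies apart by more than the smolt gap. The means of parr, spring and winter rest on fewer fish than those of summer and fall, and so vary more. At the threshold, C060R082 just passed with a gap of 0.4017 (smolt mean 0.27, parr next at -0.13), and C119R074 just missed with 0.3999 (smolt mean 0.17, winter next at -0.23). Without parr fish 5 the smolt mean of C060R082 led the next stage by 0.30.

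**Figure D1:**
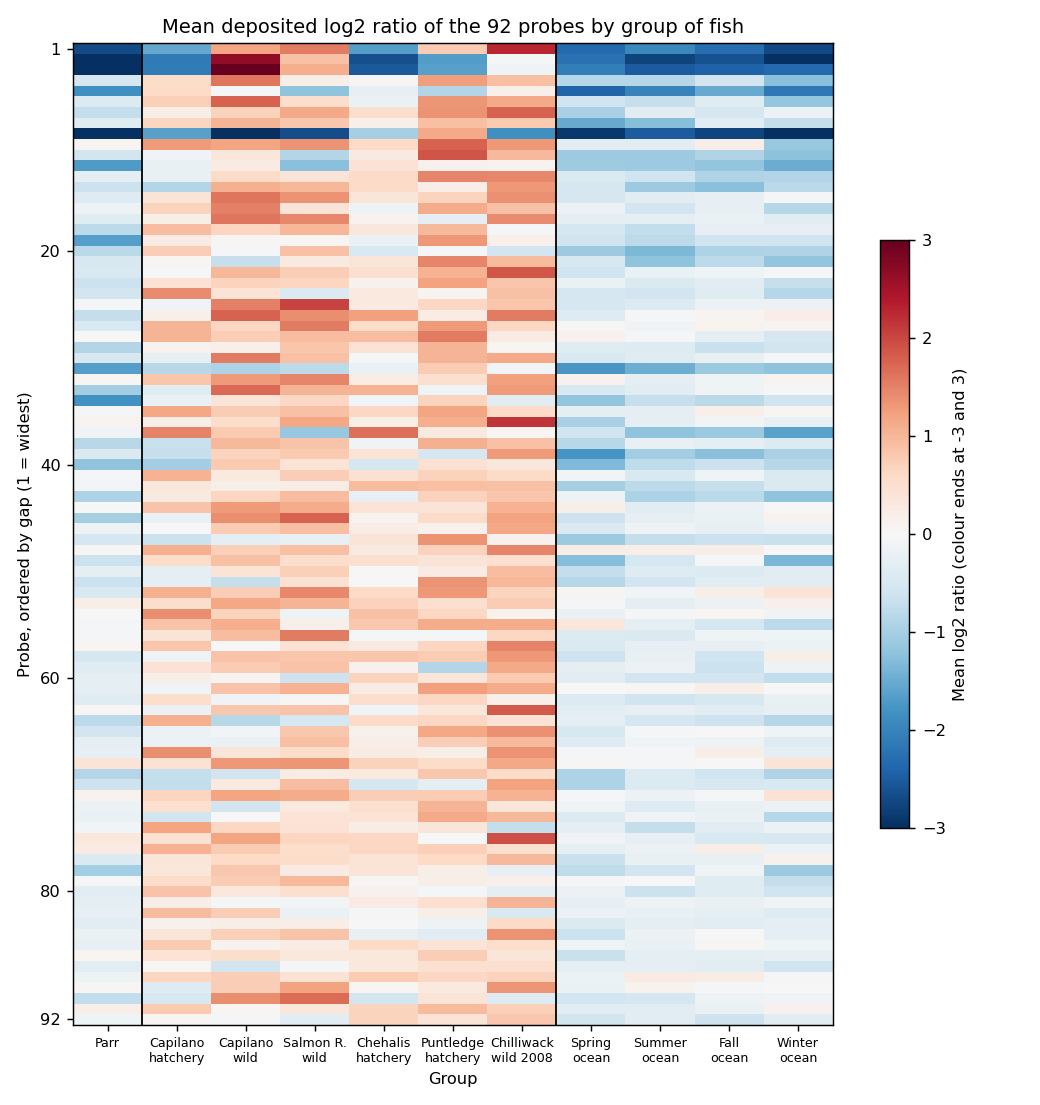
Mean deposited log2 ratio (colour) of each of the 92 probes (rows, ordered by gap, widest at the top) in parr, the 6 smolt groups and the 4 ocean stages (columns). Smolt columns are mostly red and the others mostly blue, by selection; many rows are pale or blue in 1 or more smolt groups, and 44 rows have all 6 smolt group means above every other stage mean.

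Smolts of the separate rivers did not contribute equally. All 6 smolt group means lay above every other stage mean in 44 of the 92 probes, 5 groups did so in 34, 4 in 13 and 3 in 1. By group, the mean lay above every other stage in 87 probes for Chilliwack, 86 for Puntledge, 83 for Chehalis, 81 for Salmon River, 81 for wild Capilano and 71 for hatchery Capilano fish. Chilliwack held the highest of the 6 group means in 25 probes and Puntledge in 23, while hatchery Capilano held the lowest in 26 and Chehalis in 20. A probe could enter the list through 1 high group, and the same counts were not made over all probes. They therefore cannot show whether the 92 differ from probes in general. The widest range between the 6 group means of a probe was 5.54 (log2) and the narrowest 0.32, with a median of 1.5. This is a span from highest to lowest of 6 small groups, so it is not comparable with the gap between neighbouring stage means.

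Seen fish by fish, the median over the 92 probes averaged 0.54 ± 0.36 (SD, n = 54) in smolts and -0.39 ± 0.27 (n = 172) in the other fish. Of 54 smolts, 38 lay above every other fish, and 48 of 172 other fish lay above the lowest smolt, so the stages overlapped. None of the other fish lay above the median smolt. Without the 9 arrays that stood apart, 36 of 52 smolts lay above every other fish and 46 of 165 other fish lay above the lowest smolt. Group means of this median were 0.28 ± 0.26 in hatchery Capilano (n = 10), 0.30 ± 0.20 in Chehalis (n = 9), 0.59 ± 0.19 in Puntledge (n = 10), 0.63 ± 0.47 in wild Capilano (n = 10), 0.66 ± 0.26 in Salmon River (n = 7) and 0.87 ± 0.34 in Chilliwack smolts (n = 8). The other stages lay close together, from -0.48 ± 0.41 in spring (n = 14) to -0.34 ± 0.25 in fall (n = 71). The rule favours this, since it drops a probe with a wider gap among the other stages.

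**Figure D2:**
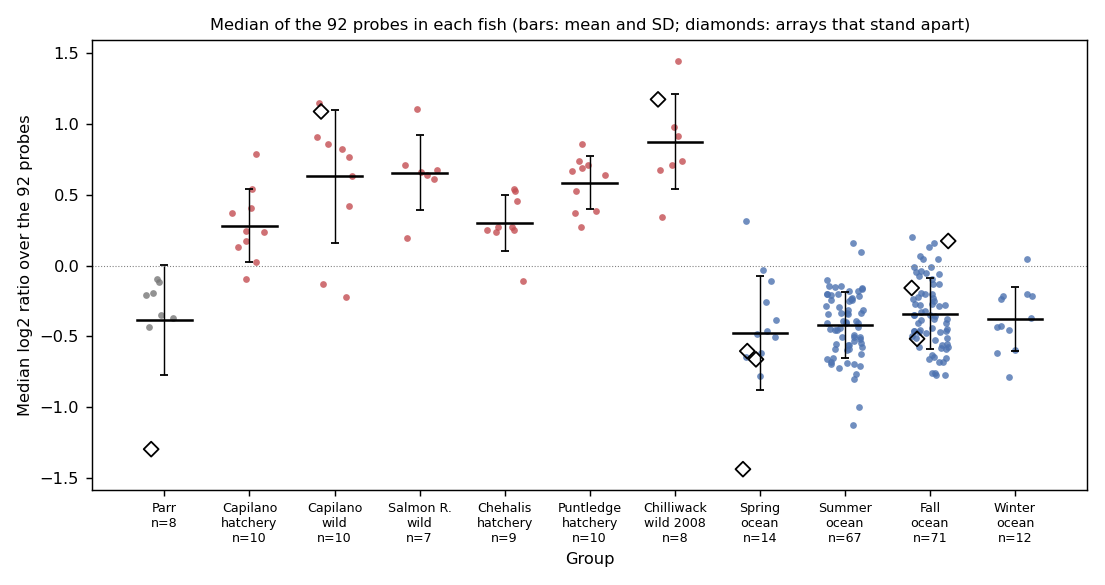
Median log2 ratio over the 92 probes (vertical axis) in each of the 226 fish (points) by group (horizontal axis), with group means and SD as bars and the 9 arrays that stand apart as diamonds. All 8 Chilliwack smolts lie above every fish of another stage, while parr fish 5 (-1.30) and spring fish 3 (-1.44) lie far below their groups.

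For single probes the overlap was wider. A probe had between 0 and 24 smolts above every other fish, with a median of 6 of 54, and 10 probes had none. Between 2 and 63 other fish lay above the smolt median of a probe, with a median of 16. The SD between smolts had a median of 0.85 over the 92 probes, against 0.61 over all probes kept. The 92 probes were also the more variable within the other stages, with median SDs of 0.73 against 0.55 in fall and 0.64 against 0.53 in summer. Of the 92, 56.52% were measured on every array, against 42.67% of all probes kept.

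The widest gap, 2.27 or a 4.81-fold difference in base 2, was that of C161R148. Its log2 ratios in the 8 parr were -1.91, -1.80, -1.70, -2.52, -6.99, -2.12, -1.80 and -2.59. In the 8 Chilliwack smolts of the same river and year they were 2.66, 3.65, 3.39, 2.04, 1.91, 1.85, 1.30 and 1.21, so these groups did not overlap. The 7 Salmon River smolts lay from 0.78 to 2.77 (median 1.32) and the 10 Puntledge smolts from -0.61 to 3.55 (median 0.57). The 10 wild Capilano smolts ran from -1.23 to 2.44 (median 1.51). The hatchery smolts of 2 rivers were lower: Capilano from -4.15 to 0.41 (median -0.95) and Chehalis from -3.10 to -1.22 (median -1.53). These Chehalis values lay within the range of summer fish, which ran from -3.88 to 0.77 around a median of -1.95. The gap without parr fish 5 was the same, 2.27, since summer was the next stage.

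C134R145 had a gap of 1.71 and split smolts within groups. Its smolt mean of -0.54 ± 2.58 (SD, n = 54) lay above the smolt median of -1.52. In wild Capilano fish, 8 of 10 lay between 3.34 and 4.46, and the other two (fish 27 and 28) lay at -2.29 and -2.43, among the hatchery Capilano fish, which ran from -3.31 to -0.46. In Chilliwack fish, 3 lay at 2.12, 4.66 and 2.40 and the other 5 between -2.59 and -0.80. Salmon River fish lay from -0.74 to 2.29 (median 0.57) and Puntledge fish from -3.86 to 0.49 (median -2.15). All 9 Chehalis fish were between -3.37 and -1.50, within the range of fall fish (-4.14 to -0.54). High values of this probe were thus found in wild smolts and in part of them only, with the highest hatchery smolt at 0.49.

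A near copy of this pattern was C011R100, with the third widest gap (1.64) and named for its range of group means. In wild Capilano fish 8 of 10 lay between 3.53 and 5.23, and fish 27 and 28 lay at -1.86 and -2.72. After each smolt group was centred on its mean, the values of C134R145 and C011R100 correlated at r = 0.95 over the 54 smolts, and at r = 0.82 over the 172 other fish, uncentred. Both values of a fish come from the same array and extract. Over all 4186 pairs of the 92 probes the median r in centred smolts was 0.12, 9 pairs exceeded 0.8 and the lowest was -0.62, so most of the 92 probes did not rise and fall together within a river. No pair lay within 1 spot of each other on the array.

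C025R084, picked after its values were seen, stood high in 1 river. Its 10 Puntledge smolts lay from -0.74 to 2.85 (mean 1.13 ± 1.22), while the means of the other 5 smolt groups ran from -3.02 in wild Capilano to -0.99 in Chehalis. Single summer and fall fish reached 4.65 and 5.71, above every smolt. At the other end, the probes with the least spread between smolts were C185R036 (given above) and C182R009, with smolts at 0.16 ± 0.41 (n = 47), summer fish at -0.26 ± 0.41 (n = 66) and 7 parr without fish 5 at -0.17. Without parr fish 5 neither met the gap threshold: the smolt mean led the next stage, parr, by 0.04 in C185R036 and by 0.33 in C182R009.

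**Figure D3:**
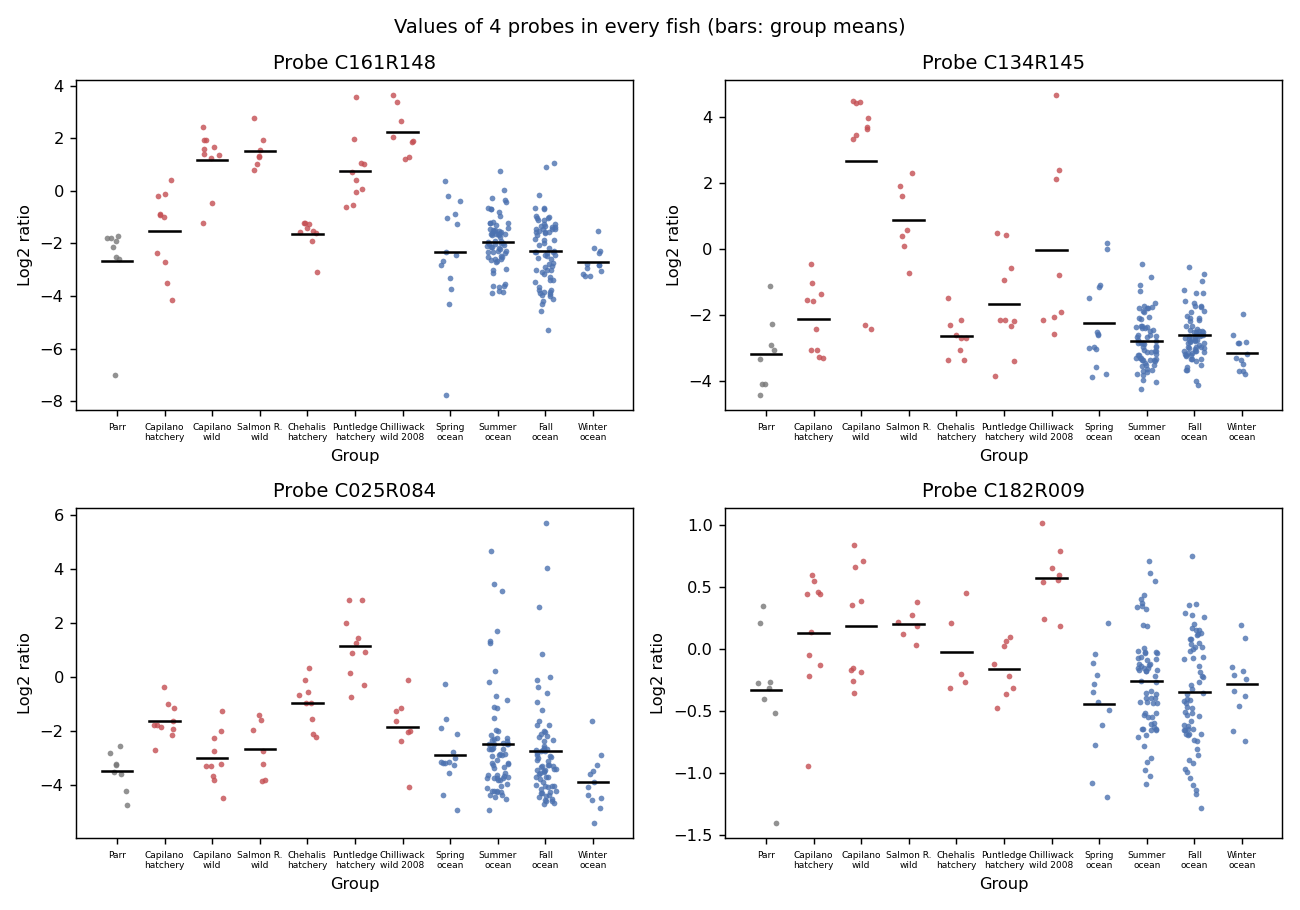
Deposited log2 ratios (vertical axes, scales differ) of 4 probes in every fish (points) by group (horizontal axis), with group means as bars. C161R148 is high in 4 of the 6 smolt groups, C134R145 splits wild Capilano fish into 8 high and 2 low, C025R084 is high in Puntledge fish, and C182R009 has smolts within the range of summer and fall fish in all smolt groups except Chilliwack and wild Capilano.

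Slides and stocks were set beside the stage means, also as a description. Parr shared no slide with another stage, so for parr slide and stage cannot be told apart, and the comparison over slides was made against the 4 ocean stages. On 17 slides with 32 smolts and 33 ocean fish, the mean fish median over the 92 probes was higher in smolts on all 17, by 0.10 to 1.70 with a median of 1.03. Per probe, the smolt minus ocean difference had a median of 0.92 from stage means and 0.91 with slide as a fixed term, and the latter was above 0 in the 91 probes where it could be fitted. It was above 0.4 in 85 of the 91, where without the slide term all 92 were. This difference is taken from the mean of the 4 ocean stages, while the rule used the gap to the next stage. It therefore does not show how many probes would meet the rule with slide fitted. The same differences were not computed over all probes. The slide term lowered the difference by more than 1.5 times in 10 probes and raised it by more than 1.5 times in 2. Probe C025R084 fell from 1.57 to 0.73, and to 0.21 as the mean difference within slides, with smolts higher on 10 of 17. C083R026 fell from 1.15 to 0.46 and C058R016 from 0.82 to 0.31. The widest-gap probe, C161R148, differed by 2.65 without and 2.86 with the slide term, with smolts higher on 14 of 17 slides. Parr, the next stage for 26 probes, have no such value.

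**Figure D4:**
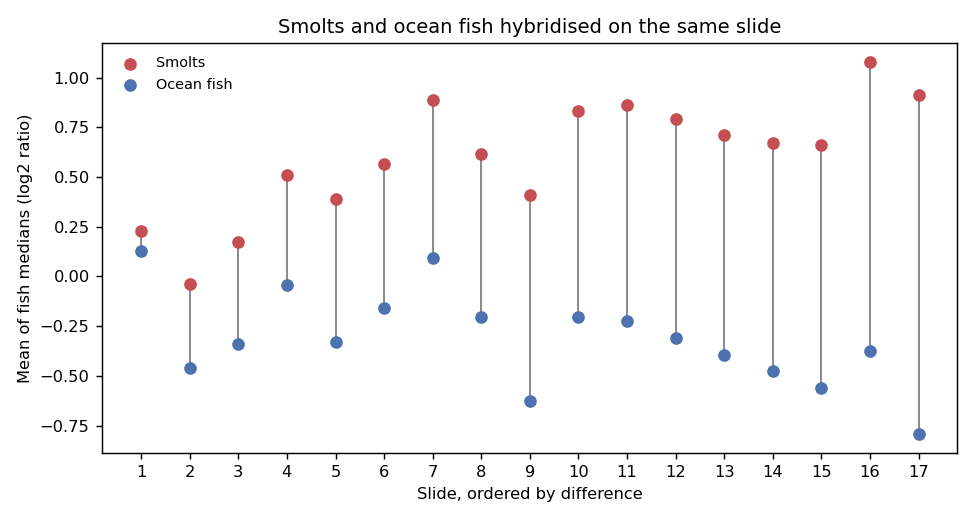
Mean of the fish medians over the 92 probes (vertical axis, log2 ratio) for smolts and ocean fish on each of the 17 slides that held both (horizontal axis, ordered by difference; a line joins the 2 means). Smolts lie above ocean fish on every slide, by 0.10 on the first and 1.70 on the last.

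Within matched stocks the difference kept its sign for most probes. Chilliwack smolts exceeded Chilliwack parr of the same year in 90 of 92 probes, with a median difference of 1.30, against 51.5% above 0 over all probes kept. Without the arrays that stood apart, parr fish 5 and smolt 2 among them, it was 87 of 92, with a median of 1.14. Puntledge smolts exceeded spring and summer fish with the stock label ECVI in 90 probes, by a median of 1.06, against 52.02% of all probes. Chehalis and Salmon River smolts exceeded summer and fall fish of Fraser stock in all 92, by a median of 0.79, against 51.09%. Capilano smolts exceeded summer and fall fish with the stock label S_Main in 88, by a median of 0.78, against 46.5%. The selection used these same fish, so these counts describe how evenly the difference was spread over stocks.

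Differences between smolt groups were tested with limma over all probes, with slide as a random block and Benjamini-Hochberg adjustment. The selection used the mean over all smolts, and a probe could enter the list through 1 high group. Leaving out 1 smolt group at a time kept from 72 (without Chilliwack) to 85 (without Chehalis) of the 92, with 76 kept without Puntledge. The group contrasts of the 92 probes are therefore not independent of the selection. A lean towards a high group in the counts below can follow from the rule, so their directions are a description. The 6 groups differed in 63 of 92 probes (limma F test, adjusted p below 0.05), beside 73.1% of all probes tested, so the 92 probes were not called more often than probes in general. Of the 29 not called, 23 had all 6 group means above every other stage, and of the 63 called, 21 did. The median range of group means was 1.00 in those not called and 1.66 in those called. A narrow range favours both outcomes, so these counts are not independent of the call. The 2 widest ranges of group means were those of C011R100 (adjusted p = 1.04e-07) and C134R145 (adjusted p = 1.13e-06).

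Between hatchery and wild smolts of the Capilano River, 40 of 92 probes were called, 11 higher and 29 lower in hatchery fish, beside 50.9% of all probes tested. The split between directions was 4264 higher and 4295 lower over all probes. The median difference of the 92 was -0.34 (log2), against 0.03 over all probes. C011R100 fell most, at -2.09 ± 0.74 (SD, n = 10) in hatchery and 3.02 ± 2.86 (n = 10) in wild fish, a difference of -5.16 (SE 0.74, limma adjusted p = 2.92e-06). Hatchery values lay between -3.04 and -1.09, and 2 wild fish lay among them. C058R016 rose most, from -0.84 ± 0.76 in wild to 1.07 ± 0.68 in hatchery fish, a difference of 1.91 (SE 0.36, limma adjusted p = 4.56e-05). Of its 10 hatchery fish 9 lay above all 10 wild fish. No slide held both origins, so the effects of slide and of origin cannot be told apart, and wild fish were shorter (10.3 against 11.6 cm).

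Between the hatchery smolts of Puntledge and Chehalis, 14 of 92 probes were called, 13 higher and 1 lower in Puntledge, beside 4.76% of all probes tested. Over all probes the called were 281 higher and 518 lower. C161R148 was higher in Puntledge by 2.40 (SE 0.49, limma adjusted p = 0.00143), and all 10 Puntledge fish lay above all 9 Chehalis fish. C004R100 was the 1 lower, at 0.27 ± 0.66 against 1.66 ± 0.38, a difference of -1.38 (SE 0.29, limma adjusted p = 0.0016). Only 1 slide held both groups, with Chehalis smolts 43 and 44 and Puntledge smolts 45 and 46. With slide as a fixed term the contrast rested on these fish alone, and 0 of the 92 and 1 of all probes were called. So few fish cannot show whether the calls above depend on slide. At an unadjusted p below 0.05 the fit with slide fixed had 7 of the 92, beside 915 of all 16797 probes. The difference for C161R148 in that fit was 1.11. Puntledge fish were longer (12.9 against 11.6 cm) and carried the stock label ECVI, where Chehalis fish carried Fraser. Size, stock and river therefore cannot be told apart.

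Between wild smolts of Salmon River and Capilano, 10 of 92 were called, 5 higher and 5 lower in Salmon River, beside 8.96% of all probes tested. C148R102 rose most, from -0.71 ± 0.42 to 0.47 ± 0.38, by 1.18 (SE 0.29, limma adjusted p = 0.00624), and the lowest Salmon River fish (-0.02) lay above the highest Capilano fish (-0.19). C004R100 fell most, from 0.80 ± 0.72 to -1.14 ± 0.57, by -1.94 (SE 0.31, limma adjusted p = 4.44e-05). That probe met the rule only with parr fish 5, and its other 7 parr lay between 0.22 and 0.81. The groups shared no slide and differed in stock label (Fraser and S_Main), so slide, stock and river cannot be told apart.

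Chilliwack smolts, the wild fish of 2008, were set against the mean of both wild groups of 2009. Of 92 probes 23 were called, 19 higher and 4 lower in Chilliwack, beside 19.6% of all probes tested. C028R120 rose most, with Chilliwack fish from 1.18 to 2.91 (median 2.12), Salmon River fish from 0.90 to 1.57 and wild Capilano fish from -0.68 to 1.21, a difference of 1.28 (SE 0.24, limma adjusted p = 0.000181). The Chilliwack mean of this probe, 2.14, was the highest of the 6 smolt groups and raised the smolt mean that selected it. Without the Chilliwack fish the probe did not meet the rule. Its difference and p-value are therefore not independent of the selection and are a description only. It did not meet the rule without parr fish 5 either: smolts led parr by 0.68, but a wider gap of 0.70 lay elsewhere. C011R100 fell most, by -2.21 (SE 0.71, limma adjusted p = 0.0219), with 3 of the 8 Chilliwack fish at 1.95 to 3.40 and 5 at -2.48 to -1.06. Without smolts 2 and 26 the count was 16 of 92 (13 higher, 3 lower), beside 13.2% of all probes. Neither wild group of 2009 shared a slide with Chilliwack fish, so year, river and slide cannot be told apart.

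Over these 4 contrasts 37 of the 92 probes were called in none, 31 in 1, 16 in 2, 8 in 3 and 0 in all 4. The same count was not made over all probes, so it cannot show whether the 92 differ from probes in general. The share of all probes called in each contrast is given above.

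**Figure D5:**
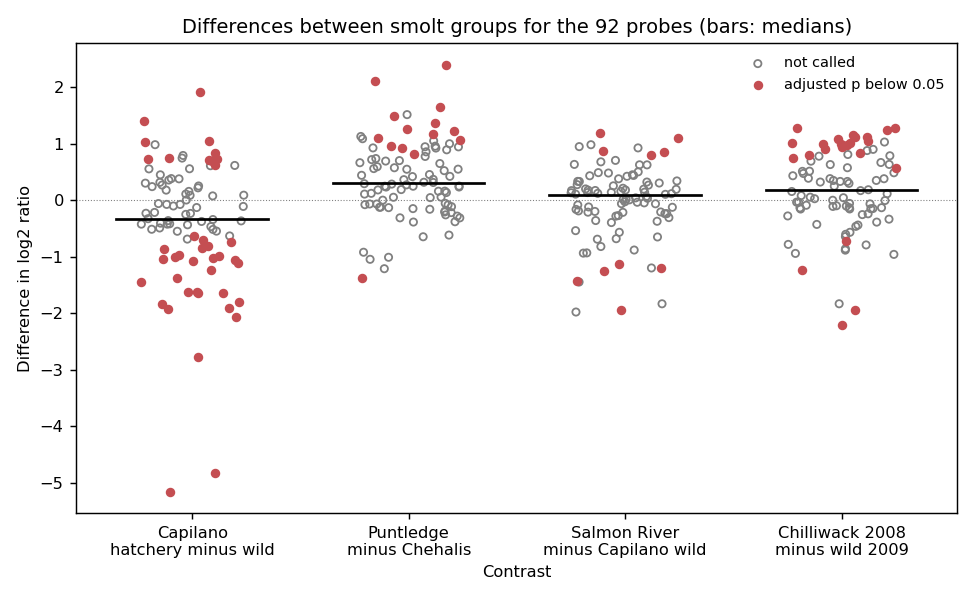
Difference in log2 ratio (vertical axis) of each of the 92 probes (points) in 4 contrasts between smolt groups (horizontal axis), filled where limma's adjusted p was below 0.05, with medians as bars. Called probes are mostly lower in hatchery than wild Capilano fish (29 of 40), and mostly higher in Puntledge than Chehalis fish (13 of 14). These directions are not independent of the selection, which used the mean over all smolts.

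Body size and condition within smolt groups were tested as slopes. For fork length 0 of 92 probes were called, beside 0.00595% of all probes tested (limma, adjusted over all probes). An unadjusted limma p below 0.05 was found in 9 of the 92, beside 628 of all 16802 probes. For condition factor (mass over length cubed) 0 of 92 were called, beside 0% of all probes. At an unadjusted p below 0.05 there were 8 of the 92, beside 489 of all 16802 probes. These slopes rest on 54 fish whose groups differ in size, so only size within a group bears on them.

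Among ocean fish none of the 92 probes was called by origin or sex. Between hatchery and wild fish of the Strait of Georgia in 2009, 0 of 92 were called by limma in summer (25 and 27 fish), beside 0% of all probes. An unadjusted p below 0.05 was found in 4 of 92, beside 745 of all 16802 probes. In fall it was 0 of 92 (26 and 27 fish), beside 0% of all probes, with 3 of 92 at an unadjusted p below 0.05, beside 676 of 16802. Fish medians over the 92 probes were -0.37 ± 0.22 in hatchery and -0.42 ± 0.21 in wild summer fish. Between the sexes in summer and fall (126 fish), 0 of 92 were called by limma, beside 0.00595% of all probes. At an unadjusted p below 0.05 there were 2 of 92, beside 555 of all 16802 probes. Whether the origin difference of Capilano smolts differs from that at sea was not tested.

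Catch area and year gave few calls. Wild fish of the west coast differed from those of the Strait in 1 of 92 probes in summer, beside 5.66% of all probes tested, and in 3 of 92 in fall, beside 3.8%. C253R059 was lower on the west coast in summer by -0.52 (SE 0.17, limma adjusted p = 0.0486), and by 0.13 higher with slide as a fixed term. In fall C227R068 was lower by -1.27 (SE 0.32, limma adjusted p = 0.0231) and C087R007 higher by 0.90 (SE 0.26, limma adjusted p = 0.0385). Neither was called with slide as a fixed term, but that fit called 0 of all 16802 probes. Only 1 slide held wild fall fish of both areas, so it cannot show whether these 2 calls depend on slide. All 9 west coast summer fish carried the Columbia region label, which no Strait fish of that test carried, so stock and area cannot be told apart. Between wild fall fish of the Strait, 2 of 92 were called, both lower in 2009 than in 2008, beside 3.6% of all probes. C083R026 was lower by -2.04 (SE 0.47, limma adjusted p = 0.0186); it was measured in 57 of 71 fall fish, and the years shared no slide.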

How the data were processed

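The authors deposited 1 log2 ratio for each probe on each array, of fish RNA against pooled liver RNA, and these were used as given. Per the labels' protocols, RNA was amplified, all fish carried one Alexa dye and the pool another, with no dye swap named. For image analysis, normalization and the rule for empty cells (49.94% of the table) the method is not given in the sources used here. Log base and numerator were taken from the values (slope of probe mean on variance -0.364, expected -0.347 for fish over pool in base 2). Arrays correlated from r = -0.45 to 0.84, and 348 of 25425 pairs were below -0.3; since the labels name 1 dye for every fish, the direction was kept.

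Stages came from the season label, and members were found by the rule given above. The members and the lists of tests were chosen with earlier results of these data known. Per probe, limma 3.58.1 (R 4.3.3; lmFit, eBayes) was fitted over the 16802 probes, with slide as a random block (correlation estimated on 3000 probes, 0.035 in smolts to 0.243 in the sex fit) and Benjamini-Hochberg adjusted p below 0.05 as the call. The fits were also run on simulated ratios, and the outcome is not given here. Fish were separate animals; the number of arrays limits the precision. Alternatives were no slide block, slide fixed, quantile normalization, probes measured on every array, other gap and detection limits, and, chosen after seeing the data, leaving out arrays that stood apart. Named were the 2 widest gaps, the probes beside the threshold, the largest called rise and fall per test, the 2 widest ranges and the 2 smallest smolt SDs; C025R084 lies outside this rule. The planned slide model over all stages was restricted to smolts and ocean fish, since parr shared no slide. A second deposited table with the same values was not used.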

Additional observations from a re-analysis of the deposited data

Results flagged for a closer look

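Single fish lay far from the rest of their group in 9 of 105 groups examined for the 14 named probes of the list and the median over the 92 probes, where chance alone flags about 1 group in 20. Of the 9 values, 4 belonged to parr fish 5, whose whole array stood apart: its median over the 92 probes was -1.30 (next lowest parr -0.44), C004R100 was at -5.21 (next 0.22), C161R148 at -6.99 (next -2.59) and C185R036 at -5.43 (next 0.35). Chehalis smolt 41 was lowest of 9 in the median over the 92 probes, at -0.11 (next 0.23), and in C161R148, at -3.10 (next -1.92). Puntledge smolt 52 was highest of 10 in C060R082, at 1.60 (next 0.76), and Puntledge smolt 49 in C083R026, at 3.86 (next 1.45). Hatchery Capilano smolt 16 was lowest of 10 in C182R009, at -0.94 (next -0.21).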

How the results depend on the processing

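The list grew from 92 to 152 probes at a gap of 0.3 and shrank to 52 among probes measured on every array. At a similar length its membership moved: stage medians gave 93 probes, 64 of them shared, quantile normalization gave 90 with 68 shared, and leaving out parr replicate 5 or spring replicate 3 gave 85 to 90. Counts over the 92 probes moved by over 1.5 times in these cases. Puntledge against Chehalis gave 14, and 0 with slide fixed (all probes 799 and 1), where the contrast rested on the 1 slide that held both groups. Chilliwack gave 23, and 15 where only probes measured on every array were tested, which were 69 of the 92. West coast against Strait in summer gave 1, but 6 with no slide block and 0 with slide fixed, with quantile normalization or over probes on every array (all probes 951, against 2393, 3 and 244 for the first 3 settings). In fall it gave 3, but 8 with no slide block, 0 with slide fixed, 1 with quantile normalization and 6 without the arrays that stood apart (all probes 639, against 1714, 0, 326 and 688). Catch year gave 2, but 1 with quantile normalization and 0 over probes on every array; over all probes 605 became 1819 with no slide block, 342, 208, and 2239 without the arrays that stood apart. C253R059 in summer changed sign, from -0.52 to 0.13, with slide fixed. It was not called in that fit, and no slide held both summer groups. The cause was not tested. In all, 69 of 83 recomputed counts stayed within 1.5 times. Many of these could hardly move. The counts for fork length, condition factor, origin at sea and sex were 0 in every setting. Others counted probes above 0 in the difference that selected them. Slide as a fixed block could not be fitted for contrasts whose groups were not linked by slides, nor for stage means with parr. West coast against Strait in summer was linked only through fall fish in the same fit, as its groups shared no slide. The second deposited table was not run, as its values are the same. No paired analysis was possible because replicate numbers were given in accession order and pair no fish. Signal over background is not in the values used here, so the limit it sets on dim probes is unknown.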
